A study of Homo sapiens with 9 samples.

Results

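The epithelial-mesenchymal state genes described here are 10 genes that were listed by symbol: the transcription factors *ZEB1*, *SNAI1*, *SNAI2* and *TWIST1*, the mesenchymal products *VIM* and *FN1*, the epithelial surface genes *EPCAM* and *CD24*, and the epithelial regulators *GRHL2* and *OVOL1*. For each gene the FPKM (fragments scaled for transcript length and for library depth) of all its RefSeq transcripts were summed in each library. Averaged over the 9 libraries, 7 of the 10 reached 1 FPKM, as did 12509 of all 27860 genes. The RNA-seq libraries came from DU145, a human prostate cancer line, and were made to compare gene expression with and without knockdown of *FZD6*, a Wnt receptor of the Frizzled family. All 9 libraries are labelled wild type in genotype, and every group expressed an shRNA: 3 control libraries with a scrambled shRNA, 3 with *FZD6* shRNA1 and 3 with *FZD6* shRNA2. No library of cells without an shRNA was used here, and nothing in the sources states that the 3 libraries of a group came from separate cultures, so that a p-value measures the spread between these libraries, which may be technical.

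In an epithelial-mesenchymal transition (EMT), epithelial cells loosen their junctions and take on an elongated, migratory state. Transcription factors of the ZEB, SNAIL and TWIST families bind E-box motifs and repress junction genes, whereas GRHL and OVOL factors hold cells in the epithelial state, in part by repressing *ZEB1*. Carcinoma cell lines often express genes of both states at once, and noncanonical Wnt signaling through Frizzled receptors is among the inputs known to act on this balance.

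The targeted gene followed its labels. *FZD6* was 20.5 ± 0.441 FPKM in control cells (SD, n = 3), 9.83 ± 0.376 with shRNA1 and 8.11 ± 0.598 with shRNA2, with no overlap between knockdown and control libraries. Of the markers of DU145 cells, *KRT8* stood at group means of 207 to 234 FPKM and *KRT18* at 271 to 295 FPKM. The others were far lower, *EPCAM* at 17.6 to 22.4 FPKM and *CDH1* at 3.45 to 4.68 FPKM. The prostate luminal genes *KLK3*, *KLK2*, *TMPRSS2* and *FOLH1* were under 0.1 FPKM in every library. Fibroblast markers summed to 0.299 to 0.46 FPKM a library, with 5 of the 6 under 0.1 FPKM throughout, and endothelial markers summed to at most 0.0943 FPKM. Of the leukocyte markers, *PTPRC* and *CD3E* were at 0 in every library, whereas *CD68*, a lysosomal protein that many cell types make, was 17.4 ± 0.638 FPKM in control cells, 22.0 ± 0.903 with shRNA1 and 25.4 ± 0.322 with shRNA2. Of 4 neuroendocrine markers, 2 were under 0.1 FPKM in every library. *ENO2* was 16.7 ± 0.919 FPKM in control cells, 15.4 ± 0.414 with shRNA1 and 17.1 ± 0.313 with shRNA2. *SYP* was 0.401 ± 0.0506, 0.422 ± 0.0462 and 0.646 ± 0.153 FPKM in the same order of groups. Depth, estimated from the confidence bounds that Cufflinks gives, was 32.0 to 40.0 M fragments a library.

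DU145 cells carried both kinds of transcript, at levels that spanned almost the whole range of expression. In control cells *VIM*, which encodes the intermediate filament protein vimentin, stood at 1086 ± 9.03 FPKM and ranked 61st of 12509 tested genes. *CD24*, a small surface glycoprotein, followed at 198 ± 0.713 FPKM, and *EPCAM*, the epithelial cell adhesion molecule, at 17.6 ± 0.451 FPKM. The transcription factors were lower, with *ZEB1* at 5.66 ± 0.221 FPKM and *SNAI1* at 3.65 ± 0.417 FPKM. *FN1*, which encodes the matrix protein fibronectin, was at 1.62 ± 0.0065 FPKM, a rank of 11420, and *SNAI2* at 0.959 ± 0.0611 FPKM, a rank of 12334. No neighbours in this order overlapped among the control libraries. With shRNA1, *SNAI2* (1.44 ± 0.0674 FPKM) stood above *FN1* (0.998 ± 0.0313 FPKM), and with shRNA2 the ranges of *SNAI1* (3.98 to 5.15 FPKM) and *ZEB1* (4.8 to 5.74 FPKM) overlapped. These comparisons between genes are of FPKM, which is per length of transcript.

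Of the 10 genes, 3 were at or near 0 in every library. *TWIST1*, a basic helix-loop-helix inducer of EMT on chromosome 7 (19113048 to 19117636), was listed at 0 in all 9 libraries, where 3 fragments would have given 0.045 to 0.0563 FPKM. *GRHL2*, which sustains epithelial junctions, lies on chromosome 8 (101492439 to 101669724) and was at 0 in 8 libraries. The shRNA2 library 2 held 0.00529 FPKM of it, below the 0.0173 FPKM that 3 fragments would have given there. *OVOL1*, on chromosome 11 (65787063 to 65797214), encodes a zinc-finger repressor and was at 0 to 0.0338 FPKM, equal to 0 to 4 estimated fragments in a library. None of the 3 was tested, and no difference between groups was detectable in them at this depth. The limit covers counting error only.

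**Figure D1:**
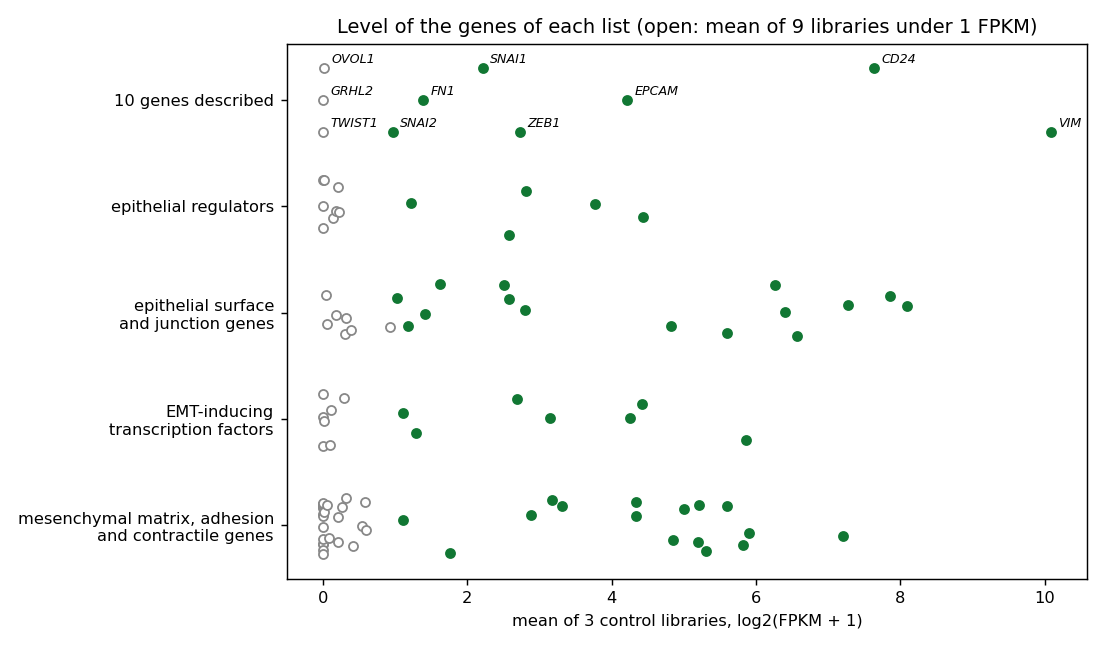
Mean level in the 3 control libraries, as log2(FPKM + 1), of the 10 genes described and of the genes of 4 lists of other epithelial and mesenchymal genes (vertical position within a list has no meaning). Filled points averaged 1 FPKM or more over all 9 libraries and open points did not: TWIST1, GRHL2 and OVOL1 sit at 0 at the left, and VIM at the far right.

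Promoter windows came from RefSeq (GRCh38.p14) and reached from 250 bases before to 50 bases after a transcription start. They were used for 4 of the 10 genes (*VIM*, *ZEB1*, *FN1* and *CD24*). A gene without a window here may still have one. For the mesenchymal genes, the window at the annotated start with the largest share of FPKM is shown. These windows hold, or lack, the motif that EMT transcription factors bind. The starts used carry 100% of the FPKM of *VIM* (chr10:17227991-17228290, plus strand), 89.4% of *ZEB1* (chr10:31318966-31319265, plus strand) and 84.6% of *FN1* (chr2:215436019-215436318, minus strand). *VIM* has 1 annotated transcript, so that its share was fixed in advance. The other shares rest on how Cufflinks split FPKM over 41 transcripts of *ZEB1* and 18 of *FN1*. Start use itself was not measured. Capitals mark the E-box CACCTG or its reverse complement CAGGTG, and the cyclic AMP response element TGACGTCA, which reads the same on both strands.
VIM: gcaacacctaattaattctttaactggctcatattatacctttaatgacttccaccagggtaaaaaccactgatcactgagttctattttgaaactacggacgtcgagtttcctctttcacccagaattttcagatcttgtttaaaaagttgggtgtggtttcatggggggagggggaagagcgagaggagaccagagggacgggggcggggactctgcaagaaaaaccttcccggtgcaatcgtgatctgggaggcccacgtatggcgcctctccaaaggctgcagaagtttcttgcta
ZEB1: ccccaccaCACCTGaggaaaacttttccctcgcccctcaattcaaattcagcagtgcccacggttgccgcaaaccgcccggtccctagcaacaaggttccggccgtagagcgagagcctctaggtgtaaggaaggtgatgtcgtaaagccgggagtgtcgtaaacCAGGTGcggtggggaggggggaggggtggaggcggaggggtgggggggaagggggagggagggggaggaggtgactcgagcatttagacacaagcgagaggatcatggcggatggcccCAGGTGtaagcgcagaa
FN1: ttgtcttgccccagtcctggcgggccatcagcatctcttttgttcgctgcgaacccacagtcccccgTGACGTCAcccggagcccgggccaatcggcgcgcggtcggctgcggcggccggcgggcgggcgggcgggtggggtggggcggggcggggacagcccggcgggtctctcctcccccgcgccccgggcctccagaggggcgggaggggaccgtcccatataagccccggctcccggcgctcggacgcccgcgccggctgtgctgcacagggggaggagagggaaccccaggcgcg
The *ZEB1* window held 3 E-box matches, the *FN1* window 1 match to the cyclic AMP response element, and the *VIM* window no match to either. Of 34943 promoter windows of the same length, 20.6% held an E-box of these letters and 1.84% the response element. A match describes letters in a window, and binding was not measured.

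In the comparison of the 6 knockdown libraries with the 3 control libraries, *EPCAM* rose and *FN1* fell, while *VIM*, *ZEB1*, *SNAI1*, *SNAI2* and *CD24* did not pass the test. These 2 calls among the 7 tested genes compare with 20.6% of all tested genes called (13.5% higher and 7.1% lower), so that the share of calls was near the background. The same 2 genes had groups that did not overlap, against 25.9% of all tested genes. Changes were tested by limma on log2(FPKM + 1), a scale that understates the change of genes with low FPKM, and p-values were adjusted by Benjamini-Hochberg over all 12509 genes. The median log2 fold change was -0.02 over the 7 genes and 0.03 over all tested genes. With bulk RNA, fewer cells that express a gene and less RNA per cell cannot be told apart.

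**Figure D2:**
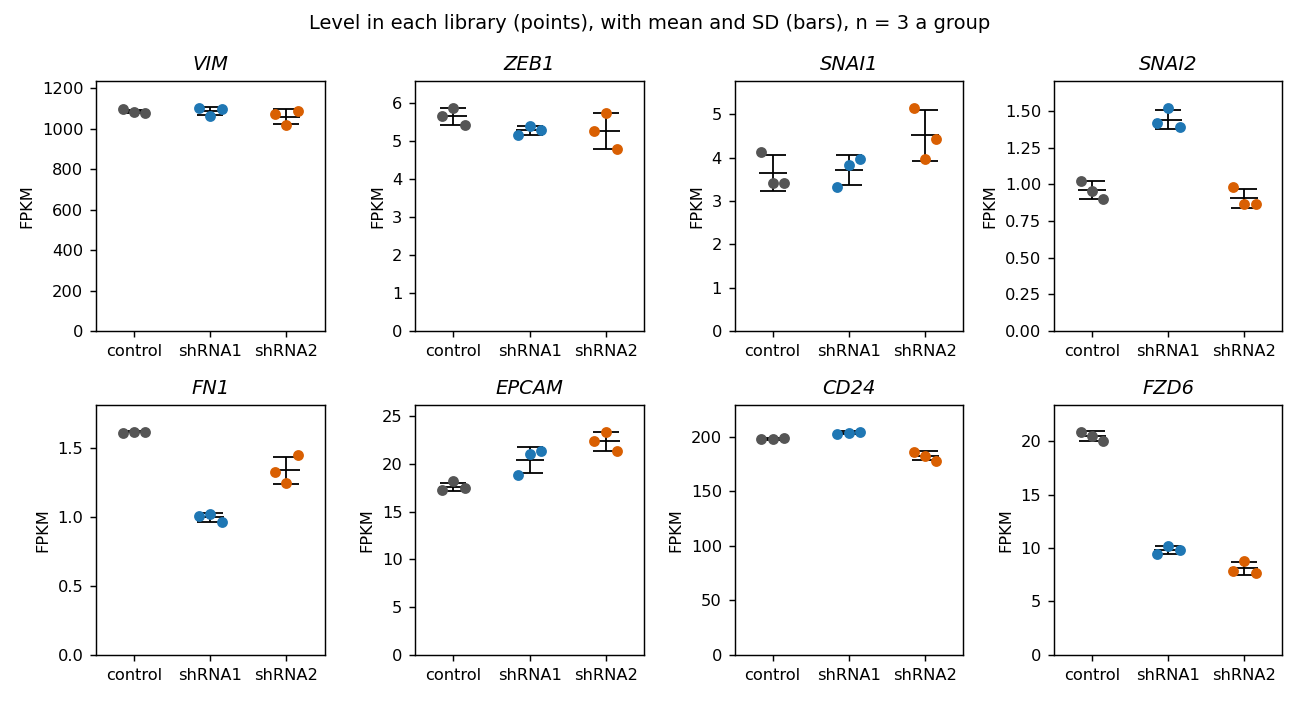
FPKM of the 7 tested genes and of FZD6 in each of the 9 libraries (points), with the mean and SD of each group (bars, n = 3) and each axis starting at 0. FN1 is lower and EPCAM higher in all 6 knockdown libraries than in any control library, and SNAI2 is high in the 3 shRNA1 libraries.

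*EPCAM* (chromosome 2, 47369311 to 47387020) read 17.3, 18.2 and 17.5 FPKM in the control libraries. It read 18.8, 21.0 and 21.4 FPKM with shRNA1, and 22.4, 23.4 and 21.4 FPKM with shRNA2. All 6 knockdown libraries were above all 3 control libraries. The log2 fold change was 0.26 (SE 0.0588, 95% confidence interval 0.13 to 0.39, limma adjusted p = 0.0173), a rise of 21.2% in FPKM. It rose by 0.20 with shRNA1 (SE 0.0535, adjusted p = 0.0418) and by 0.33 with shRNA2 (SE 0.0535, adjusted p = 0.00552). The difference between the shRNAs was 0.13 (95% confidence interval 0.01 to 0.25, adjusted p = 0.204).

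*FN1* (chromosome 2, 215360440 to 215436070) read 1.61, 1.62 and 1.62 FPKM in control libraries. The shRNA1 libraries read 1.01, 1.02 and 0.963 FPKM, and the shRNA2 libraries 1.33, 1.25 and 1.45 FPKM. The 3 groups were fully apart, with shRNA1 lowest and shRNA2 between. The log2 fold change was -0.27 in all knockdown libraries (SE 0.0734, 95% confidence interval -0.44 to -0.11, limma adjusted p = 0.0318). It was -0.39 with shRNA1 (SE 0.0336, adjusted p = 0.00179) and -0.16 with shRNA2 (SE 0.0336, adjusted p = 0.0129), equal to FPKM that fell by 38.2% and by 16.8%. Of the 18 RefSeq transcripts of *FN1*, 3 held at least 10% of its FPKM and the leading one 50%. The leading one averaged 0.707 FPKM in control, 0.538 with shRNA1 and 0.733 with shRNA2, and ranged from 0.237 to 1.03 FPKM between libraries. In the same order of groups, another averaged 0.306, 0.118 and 0.193 FPKM, and the last 0.115, 0.152 and 0.186 FPKM. The fall is therefore given for the sum only.

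The call of *EPCAM* in all knockdown libraries was lost when any 1 control library was left out (adjusted p 0.0533 to 0.0702), and that of *FN1* when any 1 control or shRNA1 library was left out (0.0511 to 0.102). An exact two-sided permutation test of the libraries gave an unadjusted p of 0.0119 for *EPCAM*, the smallest that 6 against 3 libraries allow, 0.0238 for *FN1*, and 0.107 to 0.631 for the other 5 genes. That test treats the 6 knockdown libraries as alike, although they hold different shRNAs. Its p-values therefore do not measure how far the effect varies between shRNAs.

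Across all genes the change varied with transcript length. Over the 12092 tested genes with a length in GENCODE, the log2 fold change of knockdown against control fell with transcript length (Spearman rho -0.445, a description across genes, which are not independent). *FN1*, at 8353 bases, was longer than 96.1% of these genes, and the fitted trend at its length was -0.11. *EPCAM*, at 1724 bases, was longer than 26.7% of them, with a fitted trend of 0.07. With the trend removed in each library, *EPCAM* was at 0.19 (limma adjusted p = 0.094, 0.00702 to 0.115 over all alternatives) and *FN1* at -0.16 (adjusted p = 0.226, 0.0174 to 0.265), and no gene of the 7 was called. What the trend comes from was not tested.

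**Figure D3:**
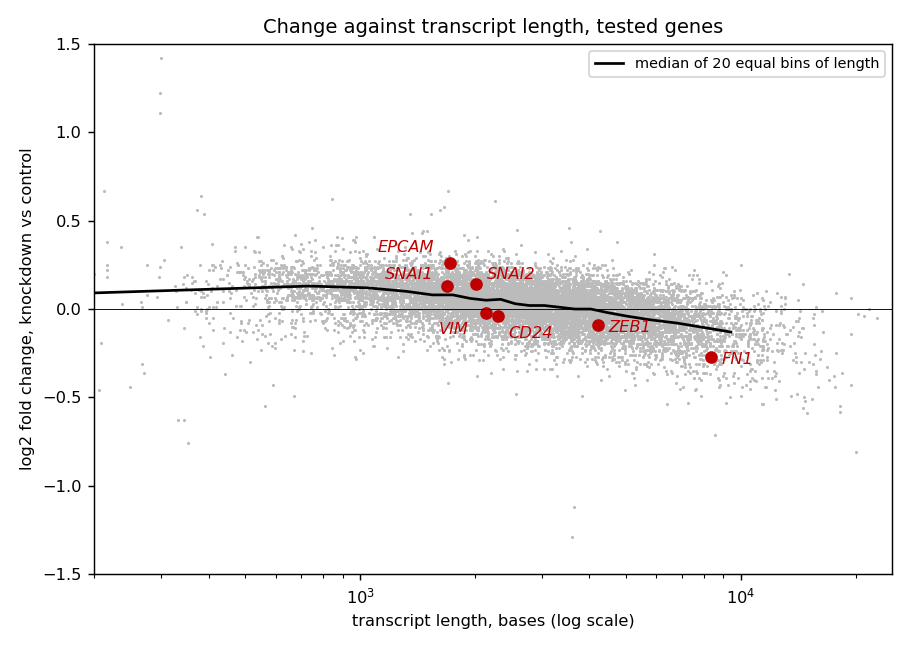
Log2 fold change of knockdown against control for tested genes with a known transcript length (grey points, log axis of length), with the median of 20 bins that hold equal numbers of genes (line) and the 7 tested genes (red). FN1 lies at the long end below the line and EPCAM above it; 441 genes, most of them under 200 bases, lie outside the axes.

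With shRNA1 alone, 3 of the 7 genes were called, *SNAI2* and *EPCAM* higher and *FN1* lower, against 18.8% of all tested genes (11.7% higher and 7.19% lower). The call of *SNAI2* rests on the group that brought it over the filter on low values, and without it 2 of the other 6 were called. Groups did not overlap for 5 of the 7, against 46.8% of all tested genes. *SNAI2*, also named Slug, a zinc-finger repressor of junction genes (chromosome 8, 48917598 to 48921429), read 1.02, 0.953 and 0.901 FPKM in control libraries, 1.42, 1.52 and 1.39 FPKM with shRNA1, and 0.979, 0.863 and 0.869 FPKM with shRNA2. The shRNA1 libraries were above all 6 others, and the shRNA2 and control libraries overlapped. Only in the shRNA1 group did its mean exceed 1 FPKM, so that it passed the filter on low values through that group, which favours a difference. Its level with shRNA1 is therefore given as a description: a log2 fold change of 0.32 against control (SE 0.0381, 95% confidence interval 0.23 to 0.41), or 50.6% more FPKM. In the fit of all genes with no filter, where that selection does not enter, the log2 fold change was 0.32 (SE 0.0349, limma adjusted p = 0.00465). The values rested on an estimated 61 to 136 fragments a library. With the length trend removed, *FN1* kept its call (-0.27, adjusted p = 0.0381, 0.0007 to 0.0455 over all alternatives), and *EPCAM* lost it (0.12, adjusted p = 0.239, 0.0275 to 0.239). *SNAI2* was then at 0.25, which is a description too, because that fit used the same filter. The call of *EPCAM* with shRNA1 was also lost without any 1 of the control libraries, shRNA1 library 2 or 3, or shRNA2 library 1 (adjusted p 0.0606 to 0.13).

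With shRNA2 alone, 3 of the 7 genes were called, *EPCAM* higher and *FN1* and *CD24* lower, against 26.7% of all tested genes (15.3% higher and 11.4% lower). Groups did not overlap for these 3, against 40.6% of all tested genes. *CD24* (chromosome 6, 106969831 to 106976855) read 198, 198 and 199 FPKM in control libraries, 203, 204 and 205 FPKM with shRNA1, and 186, 183 and 178 FPKM with shRNA2. The groups were fully apart, with shRNA1 highest and shRNA2 lowest. The log2 fold change was -0.12 with shRNA2 (SE 0.0244, 95% confidence interval -0.18 to -0.06, limma adjusted p = 0.0119), and 0.04 with shRNA1 (95% confidence interval -0.02 to 0.10, adjusted p = 0.275). With the length trend removed, *EPCAM* (0.26, adjusted p = 0.0196, 0.00252 to 0.0223 over all alternatives) and *CD24* (-0.16, adjusted p = 0.00434, 0.00434 to 0.0391) kept their calls with shRNA2, and *FN1* lost it (-0.06, adjusted p = 0.559, 0.00825 to 0.559).

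**Figure D4:**
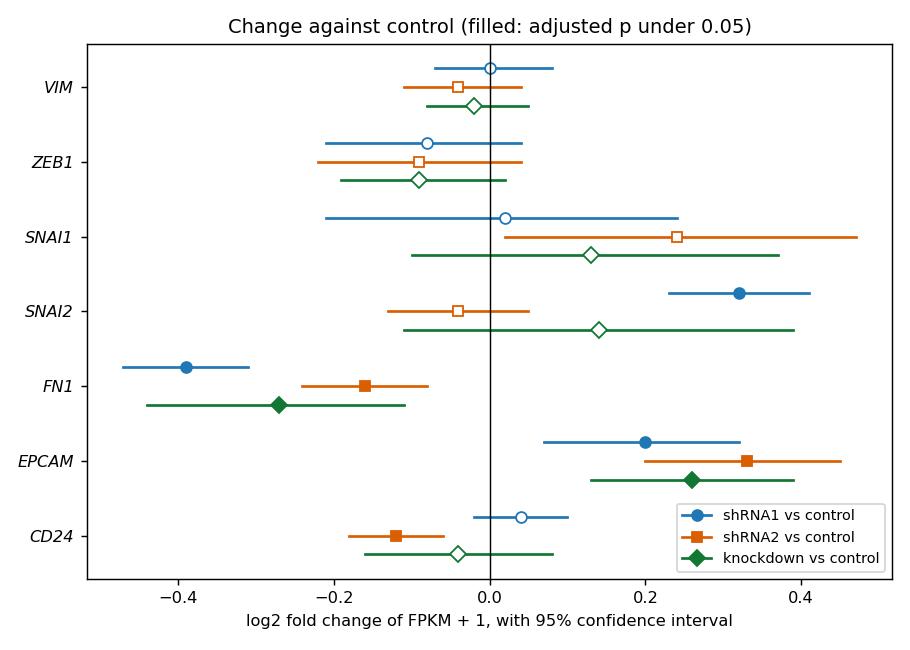
Log2 fold change of FPKM + 1 against control with its 95% confidence interval for the 7 tested genes, with shRNA1 (circles), shRNA2 (squares) and both together (diamonds), filled where the limma adjusted p was under 0.05. FN1 lies below and EPCAM above 0 in all 3 comparisons, and SNAI2 and CD24 are filled for 1 shRNA each.

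The shRNAs differed from each other in 3 of the 7 genes by the contrast of shRNA2 against shRNA1, 1 higher and 2 lower, beside 6.71% of all tested genes (1.92% higher and 4.79% lower). Without *SNAI2*, which the shRNA1 libraries brought over the filter, 2 of the other 6 differed. Groups did not overlap for 5 of the 7, against 26.4% of all tested genes. For *SNAI2* the log2 difference was -0.36 (SE 0.0381), and with no filter it was also -0.36 (SE 0.0349, limma adjusted p = 0.00331). *CD24* was lower with shRNA2 (-0.16, SE 0.0244, adjusted p = 0.0105). *FN1* was higher with shRNA2 (0.23, SE 0.0336, adjusted p = 0.00888). Between the shRNAs *FZD6* differed by -0.25 (lower with shRNA2, SE 0.0501, adjusted p = 0.0273), a call lost without control library 2, any 1 shRNA1 library, or shRNA2 library 1 or 3 (0.0521 to 0.0986). With protein-coding accessions only, the *FZD6* difference was -0.17 and missed the threshold (adjusted p = 0.206, 0.00571 to 0.206 over all alternatives). The length trend was slight in this contrast (rho 0.0559). Without that trend, *CD24* kept its call (-0.15, adjusted p = 0.0104, 0.00445 to 0.0495 over all alternatives), and *FN1* missed the threshold (0.21, adjusted p = 0.0871, 0.00502 to 0.0871). The difference in *SNAI2* was then -0.35, a description, because that fit used the same filter.

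The 3 genes that passed in none of these comparisons were *VIM* and the EMT transcription factors *ZEB1* and *SNAI1*. *VIM* (chromosome 10, 17228241 to 17237593) read 1096, 1081 and 1080 FPKM in control libraries, 1104, 1065 and 1096 FPKM with shRNA1, and 1074, 1018 and 1087 FPKM with shRNA2. The groups overlapped, and the ratio of knockdown to control had a 95% confidence interval of 0.943 to 1.04 (limma adjusted p = 0.734). Under quantile normalization, which forces all libraries to share 1 distribution, *VIM* was lower (-0.15, adjusted p = 0.0163, 0.0163 to 0.982 over all alternatives).

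*ZEB1*, a zinc-finger repressor of junction genes (chromosome 10, 31318417 to 31529814), read 5.66, 5.88 and 5.44 FPKM in control libraries, 5.17, 5.4 and 5.29 FPKM with shRNA1, and 5.27, 5.74 and 4.8 FPKM with shRNA2. The shRNA1 libraries lay just below the control libraries, and the shRNA2 libraries overlapped both. The log2 fold change was -0.09 in all knockdown libraries (95% confidence interval -0.19 to 0.02, limma adjusted p = 0.21). Its FPKM are split over 41 RefSeq transcripts, of which 5 held at least 10%, and the split varied: the leading one ranged from 0.367 to 2.73 FPKM between libraries while the sum ranged from 4.8 to 5.88 FPKM.

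*SNAI1*, also named Snail (chromosome 20, 49982980 to 49988883), read 4.13, 3.42 and 3.41 FPKM in control libraries, 3.32, 3.83 and 3.98 FPKM with shRNA1, and 5.15, 3.98 and 4.43 FPKM with shRNA2. The highest values were in shRNA2 libraries, and the lowest of them lay among the control values. The log2 fold change with shRNA2 was 0.24 (SE 0.0965, limma adjusted p = 0.0998). Without shRNA2 library 2 it was 0.32 and passed (adjusted p = 0.0486, 0.0486 to 0.245 over all alternatives), and *ZEB1* without the same library was at -0.14 and passed (0.0477, 0.0477 to 0.607).

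Other genes of the 2 states moved in both directions. Of 22 epithelial surface and junction genes, 15 were tested in knockdown against control, of which 1 rose and 2 fell, against 20.6% of all tested genes called (13.5% higher and 7.1% lower). *KRT19*, a simple epithelial keratin, rose by 0.15 (limma adjusted p = 0.00793). *CDH1*, the junction protein E-cadherin, fell by 0.28 (adjusted p = 0.0104), from 4.68 ± 0.299 FPKM in control cells to 3.91 ± 0.0778 with shRNA1 and 3.45 ± 0.105 with shRNA2 (SD, n = 3), and *CLDN4*, a tight junction claudin, fell by 0.14 (adjusted p = 0.0306). Of 13 epithelial regulators, 5 were tested and 2 fell, against 7.1% of all tested genes, the epithelial transcription factors *ELF3* (-0.25, adjusted p = 0.0148) and *KLF5* (-0.12, adjusted p = 0.0145). The median log2 fold change was -0.06 over the junction genes tested and 0.00 over the regulators, beside 0.03 over all tested genes.

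Of 14 further EMT-inducing transcription factors, 7 were tested and 1 fell, against 7.1% of all tested genes, *TCF3*, which encodes E proteins that bind E-boxes (-0.11, limma adjusted p = 0.0145). Of 41 mesenchymal matrix, adhesion and contractile genes, 17 were under 0.1 FPKM in every library, among them *CDH2*, the N-cadherin gene, at 0 throughout. Of the 16 tested, 2 rose and 2 fell, beside 13.5% higher and 7.1% lower among all tested genes. *NT5E*, the ectonucleotidase CD73, rose by 0.38 (adjusted p = 0.00648) and *CD44*, a hyaluronan receptor, by 0.13 (adjusted p = 0.00847). The type VI collagen chains *COL6A1* (-0.22, adjusted p = 0.00572) and *COL6A2* (-0.16, adjusted p = 0.00838) fell. The median was -0.02 over the transcription factors and -0.08 over the mesenchymal genes tested, beside 0.03 over all tested genes. With shRNA2 alone, 9 of 16 mesenchymal genes were called (3 higher, 6 lower) and 7 of 15 junction genes (2 higher, 5 lower), against 26.7% of all tested genes (15.3% higher and 11.4% lower). With shRNA1 alone the counts were 6 of 16 and 3 of 15, against 18.8% of all tested genes. The difference in these counts was not tested. Without the length trend *KRT19* (0.05, adjusted p = 0.246, 0.00462 to 0.246 over all alternatives) and *TCF3* (-0.09, adjusted p = 0.0912, 0.00383 to 0.0912) lost their calls, and the other named genes of the lists kept theirs under that setting. Under quantile normalization *CD44* (0.08, adjusted p = 0.0681, 0.00358 to 0.0681 over all alternatives) and *KRT19* (0.07, adjusted p = 0.154) lost theirs. Leaving out 1 library ended the calls of *ELF3* (any control library, adjusted p 0.0546 to 0.0565), *KLF5* (control library 1 or 2, 0.0574 to 0.0611), *TCF3* (control library 1 or 2, 0.0605 to 0.0655) and *CLDN4* (any control library, or shRNA1 library 1 or 2, 0.0516 to 0.109).

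For the pattern over libraries, 2 genes each were most alike in pattern to the 2 members called in knockdown against control, by Pearson's r of log2(FPKM + 1) over the 9 libraries, which share groups and depth. For *FN1* these were *NUAK1*, a protein kinase of the AMPK-related family (r = 0.983), and *SESN3*, a sestrin (r = 0.96). *NUAK1* read 1.37 to 1.42 FPKM in control libraries, 0.813 to 0.867 with shRNA1 and 1.14 to 1.2 with shRNA2, the same order of groups as *FN1*. For *EPCAM* they were *EFL1*, a GTPase of ribosome maturation (r = 0.976), and *HNRNPA1*, an RNA-binding protein (r = 0.97). *EFL1* read 14.1 to 14.6 FPKM in control libraries and 15.9 to 17.9 with shRNA2.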

How the data were processed

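RNA-seq of 9 DU145 libraries was analyzed: 3 with scrambled shRNA (control), 3 with *FZD6* shRNA1 and 3 with *FZD6* shRNA2, grouped by their labels. The deposited values are FPKM with a lower and an upper bound for each RefSeq transcript. Per the labels, the authors used STAR and Cufflinks with the human build hg38, on which the loci lie, although the methods name a mouse build. The tables hold no counts and the unit FPKM is scaled for depth and length, so that no count model was fitted.

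Of 73240 accessions, 72645 were paired with genes by a RefSeq table (GRCh38.p14), and the 595 others held at most 0.431% of the FPKM. FPKM were summed per gene, and 42 genes without a usable status in Cufflinks were dropped. Genes that averaged 1 FPKM or more were tested as log2(FPKM + 1) with limma 3.58.1 (R 4.3.3), and p-values were adjusted by Benjamini-Hochberg over all tested genes with a threshold of 0.05. Knockdown against control was fitted as 2 groups, and the contrasts of single shRNAs as 3 groups that share 1 estimate of the spread. Calls were also set beside those by the criteria of the study (p below 0.01 without adjustment, together with 1.2-fold or more). Transcript lengths were those of GENCODE v29, weighted by FPKM. Python 3.11.15 was used for summaries and exact permutation tests. Depth was estimated from the bounds of genes with 5 to 200 implied fragments.

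The members and gene lists were chosen with earlier results of these data known. All 10 members are named, *FZD6*, and the genes of each list called in knockdown against control, at most the 4 largest in each direction. Some genes of the lists are not reported here. On simulated data with the means of these libraries and their spread within groups, 0 of 12509 genes were called with no change planted in knockdown against control. With changes planted, 66 of 100 genes were called at 1.2-fold and 89 of 100 at a log2 change of 0.5. Each planted change was the same for both shRNAs, whereas in the real data a difference between the shRNAs adds to the spread of the knockdown libraries. The simulated counts can therefore be too high for genes on which the shRNAs differ. How the length trend bears on these counts was not tested. In all, 21 alternatives were fitted: other pseudocounts, filters, scalings, transcript sets and models, the removal of a trend in length, and each library left out in turn.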

Additional observations from a re-analysis of the deposited data

Results flagged for a closer look

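Among the results, 3 were singled out because the effect of *FZD6* knockdown differed between the shRNAs by a test of that difference, limma's contrast of shRNA2 against shRNA1 with 3 libraries each. *SNAI2* differed by -0.36 on the log2 scale, with the 3 shRNA1 libraries above all others. It passed the filter on low values only through those libraries, so that this difference is a description, and with no filter it was also -0.36 (limma adjusted p = 0.00331). *FN1* differed by 0.23, having fallen further with shRNA1. *CD24* differed by -0.16, with the 3 shRNA2 libraries below and the 3 shRNA1 libraries above all control libraries. None of the 7 tested genes had a library that stood apart from the other knockdown libraries by Dixon's criterion, which chance passes in about 1 of 20 groups. The criterion took the 6 knockdown libraries together. For *SNAI2*, *FN1* and *CD24* their range includes the difference between the shRNAs, so that a library odd within 1 shRNA could be missed.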

How the results depend on the processing

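Over the 7 tested genes and 4 comparisons, with 1 library left out 230 values kept their direction and side of the threshold, 15 lost and 2 gained a call, and 5 turned direction. Under the other settings 294 values kept both, 22 lost and 3 gained a call, and 5 turned. In knockdown against control, the number of the 7 genes called went from 2 to 1 without the filter, with a filter of 5 FPKM and with a replicate block in the model, and to 0 with the length trend removed, with or without the block, and by the study's criteria. With the 5 FPKM filter, which leaves 4 of the genes, 1 was called with shRNA1 and 1 between the shRNAs, and by the study's criteria 1 was called with shRNA2 and 1 between the shRNAs. Leaving out 1 library gave 0 to 2 genes in knockdown against control, 2 to 3 with shRNA1, 3 to 5 with shRNA2 and 3 to 3 between the shRNAs. Of all tested genes, it gave 997 to 3255, 917 to 3538, 2097 to 4195 and 333 to 1172. Calls of all genes fell from 2578 to 1487 in knockdown against control and from 2357 to 1482 with shRNA1 once the length trend was removed (1065 and 1288 with the replicate block as well). The study's criteria called 361 in knockdown against control, 450 with shRNA1, 590 with shRNA2 (3335 in the main test) and 268 between the shRNAs (839). The share of calls that were higher was 65.6% in knockdown against control, 53.8% without the length trend and 49.7% under quantile normalization. With shRNA1 it was 61.9%, 50.1% and 44.0%. Among these 7 genes, directions turned for changes near 0: *SNAI1* with shRNA1 was at 0.02, at -0.06 without the length trend and between -0.02 and 0.09 with 1 library left out. *CD24* with shRNA1 was at 0.04, at -0.02 under quantile normalization and at -0.01 without the length trend. *ZEB1* between the shRNAs was at -0.01, at 0.01 without shRNA1 replicate 2 and at 0.05 without shRNA2 replicate 3. Libraries of the same number correlated at -0.071 to 0.111 in their deviations from group means, and those of different numbers at -0.123 to 0.184. The numbers thus gave no sign of a pairing, which these correlations cannot exclude. The block left the calls of all genes in knockdown against control at 2377. The cause of these shifts was not tested, apart from the smaller number of genes that a filter of 5 FPKM leaves. The number of libraries, 3 a group, limits every comparison, and the FPKM of *SNAI2* and *FN1* are low.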

Other observations

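The following genes of the lists above were chosen after their values were seen. *TWIST2* stood at 18.0 ± 0.755 FPKM in control cells (SD, n = 3), while *TWIST1* was listed at 0. With shRNA1 *TWIST2* was at 18.7 ± 1.36 FPKM, a log2 change of 0.05 (limma adjusted p = 0.597). With shRNA2 it was at 15.4 ± 1.08 FPKM, a log2 change of -0.21. That change passed narrowly (limma adjusted p = 0.0499, 0.00923 to 0.133 over all alternatives). *TNC*, the matrix protein tenascin C, read 19.2, 19.4 and 18.9 FPKM in control libraries and 14.4, 14.6 and 14.1 with shRNA1, a log2 change of -0.39 (limma adjusted p = 0.00213). With shRNA2 it read 20.3, 20.5 and 18.6 FPKM, and the shRNAs differed by 0.44 (adjusted p = 0.00118). *LOXL2*, a lysyl oxidase that crosslinks collagen, fell further with shRNA2 than with shRNA1. Its log2 change was -0.48 for shRNA2 (adjusted p = 0.000367), with a difference between the shRNAs of -0.37 (adjusted p = 0.00141). For shRNA1 it was -0.12 (adjusted p = 0.0476), a call lost with the length trend removed (-0.13, adjusted p = 0.0892, 0.0114 to 0.139 over all alternatives).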
